A study of Mus musculus with 6 samples.

Results

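The hemoglobin genes described here are Hba-a1, Hba-a2, Hbb-bs and Hbb-bt, together with Alas2, the erythroid gene that starts heme synthesis. They were taken by gene name, which gave 5 of the 33965 genes in the deposited table. The 5 genes were picked with the GB2 against PBS values of these tumors already known, so their difference between the groups is given as a description, with no p-value. The 6 tumors were raised subcutaneously from MC38, a colon carcinoma line of the mouse, in C57BL/6 mice, which were female and bought at 6 weeks of age, with no allele or transgene named. There were 3 tumors treated with PBS, the vehicle, and 3 treated with GB2, a prodrug in which MSA-2, a STING agonist, is linked to artesunate, a TREM2 inhibitor. GB2 was injected into a vein at 10 mg/kg in the MC38 model, and the labels give no dose for the sequenced tumors. The cells were inoculated in the right flank, and the labels number the tumors without naming the mice.

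Hemoglobin is a tetramer of alpha and beta globin chains, each holding a heme group, and it carries oxygen in red blood cells. Mature red cells of mammals have no nucleus, while reticulocytes, the young red cells that enter the blood, still carry globin mRNA, so a piece of any tissue with blood in it can hold these transcripts. In adult C57BL/6 mice, the alpha chains are made from Hba-a1 and Hba-a2 and the beta chains from Hbb-bs and Hbb-bt, while ALAS2 carries out the first step of heme synthesis in erythroid cells.

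The libraries held between 64764405 and 83690056 counts, the 3 GB2 libraries being the larger ones. About 4 counts stand for 1 read pair. Over 19602 genes with enough counts, edgeR's quasi-likelihood test called 0 genes (0%) past both limits, which were 0.05 for the adjusted p and 2 for the fold change, while DESeq2 called 385 (1.96%), 352 of them higher (1.8%) and 33 lower (0.168%) in GB2 tumors. With the unadjusted p in place of the adjusted one, here named the unadjusted limit, edgeR passed 913 genes (4.66%), of which 180 were lower (0.918%) and 733 higher (3.74%). Without the fold limit 1360 genes (6.94%) had an unadjusted p below 0.05. Epithelial markers were low in these carcinomas, with summed levels of 6.85 to 8.22 CPM (counts scaled to a common library size, on the TMM scale) in PBS tumors and 8.69 to 14.2 CPM in GB2 tumors over 10 genes, and with Krt19 and Cdx2 at 0 in 3 and 5 tumors.

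All 5 genes were lower on average in GB2 tumors, and all 5 ranked the tumors in the same order. PBS tumor 1 was highest, followed by PBS tumor 2, GB2 tumor 1, PBS tumor 3, GB2 tumor 2 and GB2 tumor 3. Because GB2 tumor 1 lay above PBS tumor 3 in each gene, the groups overlapped in 5 of 5 genes. Over all genes tested, the groups did not overlap in 15.3%, in 6.68% with the GB2 tumors lower and in 8.61% with the GB2 tumors higher. The same order of the 6 tumors was found in 79 of the 19602 genes tested (0.403%), a count that includes these 5. In bulk tissue, fewer red cells and less RNA per red cell cannot be told apart.

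**Figure D1:**
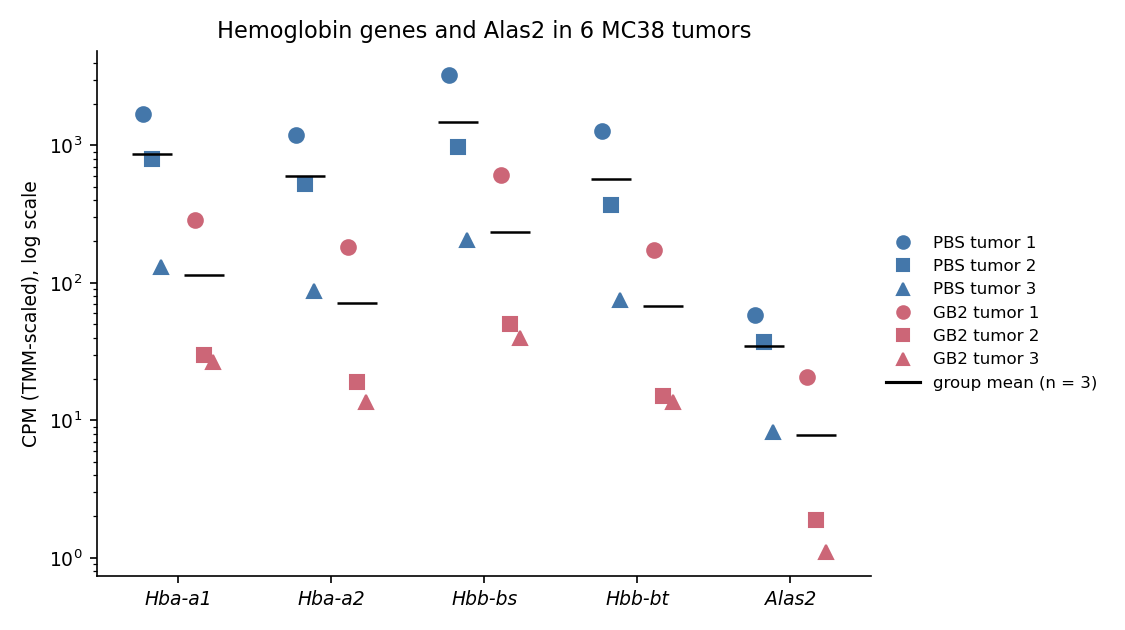
CPM of the 5 genes in each of the 6 tumors on a log axis. Points are tumors, blue for PBS and red for GB2, with the shape giving the tumor number, and black bars are group means (n = 3). In each gene the point of GB2 tumor 1 lies between those of PBS tumor 2 and PBS tumor 3.

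Hba-a1 (ENSMUSG00000069919) encodes an adult alpha globin chain and lies on chromosome 11 from 32233511 to 32234465, on the plus strand, in the positions of the deposited table. Its level was 1683, 796 and 131 CPM for the PBS tumors in the order of their numbers, against 287, 30.0 and 26.5 CPM for the GB2 tumors. Within the PBS group the highest tumor was 12.9-fold above the lowest, and within the GB2 group 10.8-fold. The PBS mean was 870.1 ± 779 CPM and the GB2 mean, 7.61-fold lower, was 114 ± 149 CPM (SD, n = 3 each), and the fitted log2 fold change was -2.93 ± 1.18 (SE). The SD was about as large as the mean in PBS tumors and larger in GB2 tumors.

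Hba-a2 (ENSMUSG00000069917), the other adult alpha globin gene, lies downstream on the same strand, from 32246489 to 32247298. Its level was 1195, 525 and 86.8 CPM in the PBS tumors, against 181, 19.0 and 13.7 CPM in the GB2 tumors, in the order of their numbers. GB2 tumors 2 and 3 were again the lowest, and GB2 tumor 1 lay within the PBS range. The log2 fold change was -3.08 ± 1.23 (SE).

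Hbb-bs (ENSMUSG00000052305), which encodes an adult beta globin chain, lies on chromosome 7 from 103475741 to 103477135 on the minus strand. Its level was 3266, 966 and 206 CPM in the PBS tumors, against 609, 50.1 and 39.8 CPM in the GB2 tumors. The tumors fell in the same order as for the alpha genes. In PBS tumor 1 it ranked 1 of 33965 genes by FPKM, a level per transcript length, at 3644 FPKM. It ranked 24 in PBS tumor 2, 125 in PBS tumor 3, 40 in GB2 tumor 1, 688 in GB2 tumor 2 and 904 in GB2 tumor 3. The log2 fold change was -2.67 ± 1.29 (SE).

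Hbb-bt (ENSMUSG00000073940), the second adult beta globin gene, lies from 103461731 to 103463203 on the same strand. Its level was 1271, 367 and 74.6 CPM in the PBS tumors, against 174, 15.0 and 13.5 CPM in the GB2 tumors. Of the 4 globin genes it had the widest range within the PBS group, with the highest tumor 17-fold above the lowest. The log2 fold change was -3.08 ± 1.30 (SE).

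Alas2 (ENSMUSG00000025270) lies on chromosome X from 149330371 to 149353634 on the plus strand. Its level was 58.0, 37.3 and 8.23 CPM in the PBS tumors, against 20.5, 1.88 and 1.11 CPM in the GB2 tumors. It spanned 7.05-fold within the PBS group and 18.5-fold within the GB2 group. The lowest value, in GB2 tumor 3, rested on 23.5 read pairs, against 858 in PBS tumor 1, so Alas2 carried more counting error than the globins, of which the smallest value stood on 287 read pairs. The log2 fold change was -2.14 ± 1.147 (SE).

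Per transcript length, the order of the genes was nearly the same in every tumor. Hbb-bs was first (1705 ± 1745 FPKM in PBS tumors, SD, n = 3), Hba-a1 second (959 ± 810.0) and Alas2 last (12.97 ± 8.84). Hba-a2 (806 ± 706) and Hbb-bt (719 ± 747) were neighbours, with Hba-a2 above Hbb-bt in each tumor except PBS tumor 1. There the values were close, at 1535 FPKM for Hba-a2 and 1550 FPKM for Hbb-bt. In GB2 tumor 3 the FPKM were 51.4 for Hbb-bs, 32.4 for Hba-a1, 20.3 for Hba-a2, 19.0 for Hbb-bt and 0.451 for Alas2.

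Of the 5 genes, 0 were called by edgeR at the adjusted limit, as were 0% of all genes, and DESeq2 called 0 of 5 where it called 0.168% of all genes as lower. At the unadjusted limit edgeR passed 3 of 5, Hba-a1, Hba-a2 and Hbb-bt, beside 0.918% of all genes on the lower side. Since the genes were chosen on this contrast, nothing is read from that count. The median log2 fold change of the 5 genes was -2.93, beside -0.016 over all genes tested.

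The size of the difference rested on single tumors. Without GB2 tumor 1, the log2 fold changes were -4.94 for Hba-a1, -5.20 for Hba-a2, -5.03 for Hbb-bs, -5.32 for Hbb-bt and -4.53 for Alas2. Without PBS tumor 1, they were -2.01, -2.10, -1.33, -1.71 and -1.53 in the same order. The direction was the same in each of the 6 fits with a tumor left out. PBS tumor 1 also stood apart over the 19602 genes tested, as its log2 CPM correlated at 0.929 to 0.948 with the other tumors, which correlated at 0.945 to 0.971 among themselves, and its TMM factor, 0.914, was the smallest. The part of this in the hemoglobin values was not tested.

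**Figure D2:**
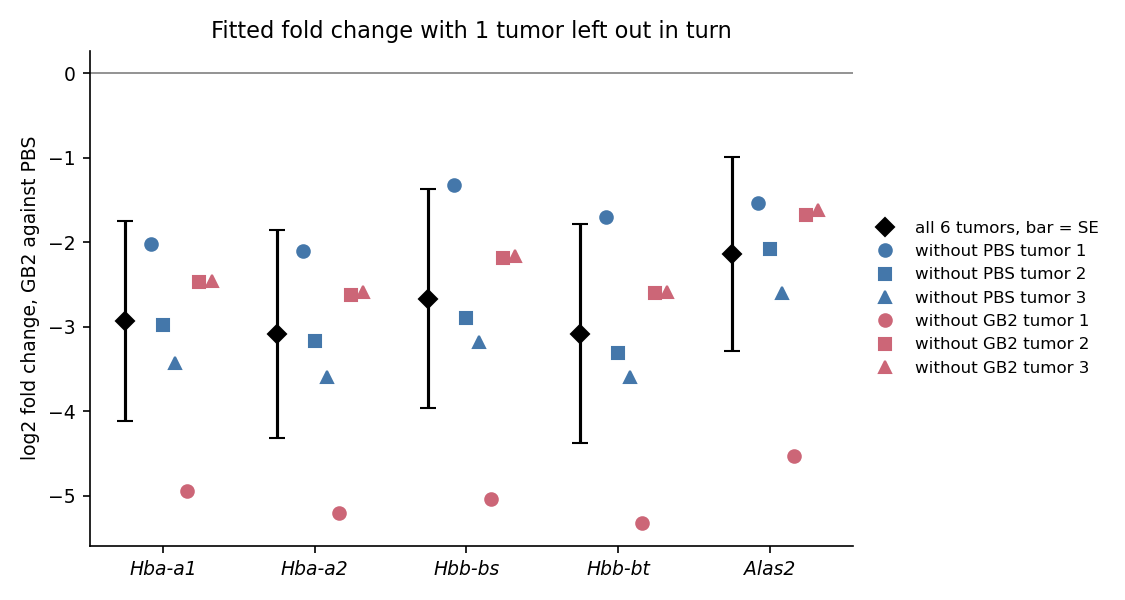
Log2 fold change of each gene in GB2 against PBS tumors, from edgeR. Black diamonds are the fit with 6 tumors with its standard error as the bar, and coloured points are fits without the tumor named in the legend. Leaving out GB2 tumor 1 gives the most negative value in each gene, from -5.32 to -4.53, and leaving out PBS tumor 1 the least negative.

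The spread within groups is a measure that does not use the difference between them. The pooled SD of log2 CPM within groups was 1.91 for Hba-a1, 1.98 for Hba-a2, 2.09 for Hbb-bs, 2.07 for Hbb-bt and 1.89 for Alas2, against a median of 0.41 over the 19602 genes tested. Among 13979 genes with a mean log2 CPM of at least 0, where the median SD was 0.33, the 5 genes ranked between 98 and 122 from the most variable. The spread was of like size in both groups for Hba-a1 (1.89 in PBS tumors, 1.93 in GB2 tumors) and larger in GB2 tumors for Alas2 (2.23 against 1.47).

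The 4 globin genes together took 0.677%, 0.268% and 0.0507% of all counts for the PBS tumors in the order of their numbers, against 0.129%, 0.0113% and 0.0097% for the GB2 tumors. Their summed level was 3523 ± 3539 CPM in the PBS group against 486 ± 662 CPM in the GB2 group (SD, n = 3 each), and the most and the least globin-rich tumor were 79.3-fold apart. Reads from these genes can be split between copies, so the sum of a pair is less uncertain than either copy. The alpha sum was 2878, 1321 and 218 CPM in the PBS tumors, against 467, 49.0 and 40.2 CPM in the GB2 tumors. The beta sum was 4537, 1333 and 281 CPM in the PBS tumors, against 783, 65.1 and 53.3 CPM in the GB2 tumors. The group means differed 7.94-fold for alpha and 6.82-fold for beta, with both pairs lower in GB2 tumors.

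While the levels varied 79.3-fold, the balance between chains varied much less. The summed alpha FPKM divided by the summed beta FPKM was 0.638, 0.993 and 0.778 for the PBS tumors in the order of their numbers, against 0.599, 0.755 and 0.748 for the GB2 tumors. The highest and lowest ratios were 1.66-fold apart, and the ratio was under 1 in all 6 tumors. The ratio was lowest in GB2 tumor 1 and PBS tumor 1, the most globin-rich tumor of each group, and highest in PBS tumor 2. For each 1000 globin counts there were 7.83, 14.0 and 16.5 Alas2 counts in the PBS tumors, against 16.4, 16.4 and 11.8 in the GB2 tumors. The highest and lowest of these ratios were 2.11-fold apart. PBS tumor 1 had the fewest Alas2 counts per globin count.

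The copies of each pair can hardly be told apart in their coding sequence. In the GENCODE M21 transcripts (GRCm38), the coding sequences of Hba-a1 and Hba-a2 are both 429 bases long, stop codon included, and differ at 1 position, and those of Hbb-bs and Hbb-bt are 444 bases long and differ at 1 position. The stretches below are shown because they hold those positions, printed 5′ to 3′ on the coding strand with the base that differs from the partner in capitals. All 4 lie in exon 3.
Hba-a1, coding bases 301 to 390, chr11:32284263-32284352, plus strand: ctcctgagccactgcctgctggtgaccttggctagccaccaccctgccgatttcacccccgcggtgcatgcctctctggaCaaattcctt
Hba-a2, coding bases 301 to 390, chr11:32297080-32297169, plus strand: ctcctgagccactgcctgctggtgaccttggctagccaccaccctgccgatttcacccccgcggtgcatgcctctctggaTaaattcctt
Hbb-bs, coding bases 328 to 417, chr7:103826692-103826781, minus strand: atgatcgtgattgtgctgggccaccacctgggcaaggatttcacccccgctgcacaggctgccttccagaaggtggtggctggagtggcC
Hbb-bt, coding bases 328 to 417, chr7:103812683-103812772, minus strand: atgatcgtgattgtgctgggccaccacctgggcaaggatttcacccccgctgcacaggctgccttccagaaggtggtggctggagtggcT
Over the whole transcripts, which differ in their untranslated ends, 48.4% of the 150-base windows of Hba-a1 also occur in Hba-a2, and 65.7% of those of Hba-a2 occur in Hba-a1. For Hbb-bs and Hbb-bt the shares were 58.7% and 50.7%. Reads from these windows can be given to either copy, so the values of single copies are uncertain.

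With this limit, Hba-a2 held 41.5%, 39.7% and 39.8% of the alpha read pairs for the PBS tumors in the order of their numbers, against 38.6%, 38.8% and 34.0% for the GB2 tumors. The 95% Wilson interval ran from 41.0% to 42.0% in PBS tumor 1 and from 31.0% to 37.3% in GB2 tumor 3. In GB2 tumor 2, from 35.9% to 41.8%, it overlapped the intervals of all 3 PBS tumors, and in GB2 tumor 1, from 37.7% to 39.6%, those of PBS tumors 2 and 3. Hbb-bt held 28.0%, 27.5% and 26.6% of the beta read pairs in the PBS tumors, against 22.2%, 23.0% and 25.3% in the GB2 tumors. Its interval ran from 25.4% to 27.8% in PBS tumor 3 and from 22.9% to 27.9% in GB2 tumor 3, so these neighbours overlapped. The intervals of GB2 tumor 1 (21.6% to 22.9%) and GB2 tumor 2 (20.8% to 25.3%) lay below those of each PBS tumor. The values themselves did not overlap between groups for either share, at 40.4% ± 0.997 against 37.2% ± 2.72 for Hba-a2 and 27.4% ± 0.732 against 23.5% ± 1.60 for Hbb-bt (SD, n = 3). These intervals cover counting error only. The shares come from the same contrast as the choice of genes and were not tested.

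**Figure D3:**
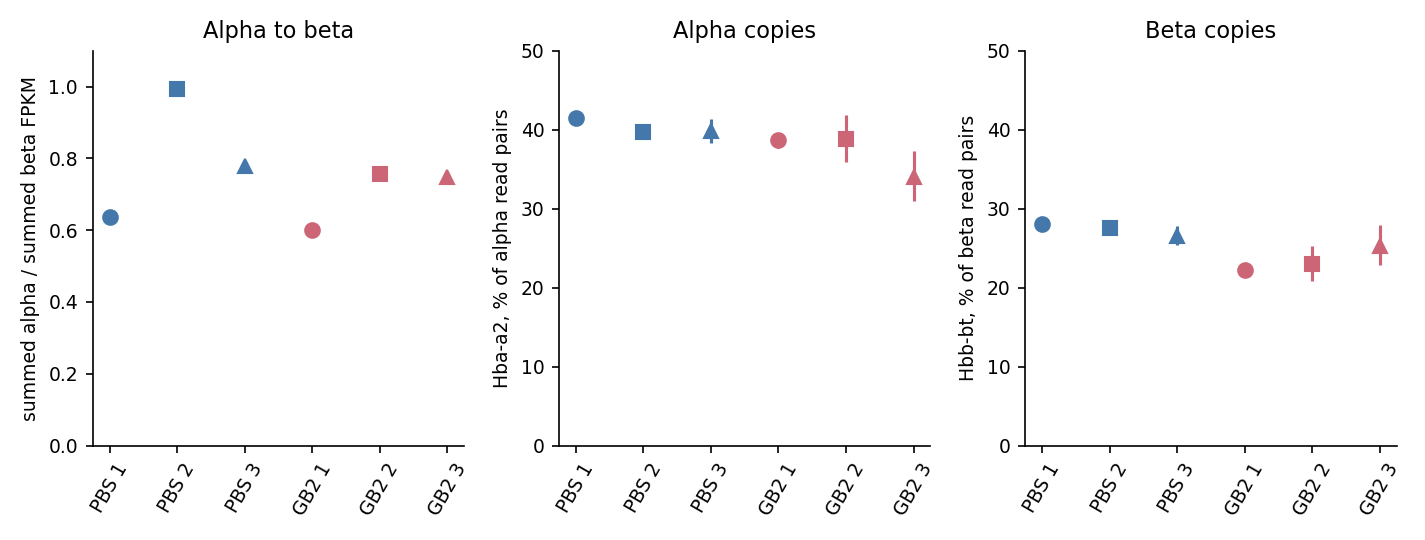
Left, summed alpha divided by summed beta FPKM in each tumor. Middle and right, the percent of alpha read pairs given to Hba-a2 and of beta read pairs given to Hbb-bt, with 95% Wilson intervals as vertical bars. Blue is PBS and red is GB2. The ratio lies between 0.599 and 0.993, and Hbb-bt between 22.2% and 28.0%.

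The sequence before the start sites is shown as a description of the 5 genes. Whether it bears on their shared order of tumors was not tested. Each line gives 250 bases ending just before the RefSeq start site (GRCm38.p6), 5′ to 3′ on the strand of the gene. Capitals mark matches, on either strand, to GATAA (the core of GATA factor sites), CACCC (of Krüppel-like factor sites), CCAAT, and ATATAA (of TATA boxes).
Hba-a1, chr11:32283422-32283671, plus strand: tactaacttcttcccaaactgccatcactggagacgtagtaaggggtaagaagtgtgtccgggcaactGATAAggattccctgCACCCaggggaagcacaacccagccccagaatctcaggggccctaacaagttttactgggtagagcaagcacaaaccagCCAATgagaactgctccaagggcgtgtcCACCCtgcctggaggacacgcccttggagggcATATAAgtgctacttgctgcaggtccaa
Hbb-bs, chr7:103827929-103828178, minus strand: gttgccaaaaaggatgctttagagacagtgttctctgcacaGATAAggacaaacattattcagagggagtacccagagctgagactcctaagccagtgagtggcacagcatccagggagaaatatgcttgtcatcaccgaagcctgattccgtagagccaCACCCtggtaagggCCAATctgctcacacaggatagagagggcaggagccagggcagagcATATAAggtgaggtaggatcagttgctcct
Hbb-bt, chr7:103813924-103814173, minus strand: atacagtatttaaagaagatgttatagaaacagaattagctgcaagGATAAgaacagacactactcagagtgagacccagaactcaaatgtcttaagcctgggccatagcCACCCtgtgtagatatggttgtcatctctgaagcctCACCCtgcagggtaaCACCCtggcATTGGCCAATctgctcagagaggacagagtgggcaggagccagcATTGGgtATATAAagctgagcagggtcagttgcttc
Alas2, chrX:150547167-150547416, plus strand: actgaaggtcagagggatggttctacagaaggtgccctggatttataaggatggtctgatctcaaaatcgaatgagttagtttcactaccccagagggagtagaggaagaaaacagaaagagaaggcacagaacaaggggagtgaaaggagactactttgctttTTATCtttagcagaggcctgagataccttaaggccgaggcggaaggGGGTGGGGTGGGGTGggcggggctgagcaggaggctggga
The window of Hba-a2 (chr11:32296242-32296491) matches that of Hba-a1 at 247 of 247 aligned bases, with a shift of 3 bases. GATAA had 1 match in each of the 5 windows, 182 bases before the start in Hba-a1, 209 in Hbb-bs, 204 in Hbb-bt and, on the opposite strand, 86 in Alas2. CACCC was matched 2 times in each alpha gene, 1 time in Hbb-bs and 3 times in both Hbb-bt and Alas2, where all 3 lie on the opposite strand within the last 40 bases. CCAAT and ATATAA were found in the 4 globin genes and not in Alas2, and in Hbb-bt a CCAAT on each strand abut. Among 32851 RefSeq windows of the same length, 22.6% held GATAA, 52% CACCC, 33.8% CCAAT and 9.1% ATATAA, while 10.1% held both GATAA and CACCC and 0.466% held all 4. TGAGTCA, the core of NF-E2 sites (4.46% of windows), and CAGCTG, an E-box (13%), were not in the 5 windows. A match is a stretch of letters and not a shown binding site.

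Other red cell genes were searched in lists of known members. Of 18 genes of the red cell membrane and its skeleton, 17 were in the table and 13 had enough counts to be tested. Among these, 9 were higher and 4 lower in GB2 tumors, with a median log2 fold change of 0.21 that turned to -0.026 when GB2 tumor 1 was left out and was 0.37 with PBS tumor 1 left out. At the unadjusted limit 1 passed, on the lower side, beside 0.918% of all genes. Slc4a1, which encodes band 3, the anion exchanger of the red cell membrane, was at 4.18, 3.62 and 1.57 CPM in the PBS tumors, against 1.30, 0.277 and 0.176 CPM in the GB2 tumors. The 3 GB2 tumors were the lowest, though PBS tumor 3 and GB2 tumor 1 were close, at 27.8 and 27.2 read pairs. Its log2 fold change was -2.42 ± 0.79 (SE), with an unadjusted p of 0.0172 and, over all genes tested, an adjusted p of 0.54 in edgeR.

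Epb42, which encodes the red cell protein 4.2, had too few counts for the test, at 22, 12 and 8 in the PBS tumors, against 0, 4 and 8 in the GB2 tumors. Its lowest PBS tumor and highest GB2 tumor both had 8 counts, about 2 read pairs. The other 12 tested genes of the membrane list did not pass. Among those that other cells also use, the log2 fold change was -0.014 ± 0.20 for Epb41, 0.73 ± 0.43 for Aqp1 and 0.32 ± 0.47 for Tmod1 (SE). Of the remaining tested genes, Ank1 (0.45), Sptb (0.28), Dmtn (0.15), Icam4 (1.81), Xk (0.58), Add2 (0.065) and Tmcc2 (0.21) were higher. Gypc (-0.20) and Rhd (-0.30) were lower. Icam4 had at most 8.75 read pairs in a tumor and Xk at most 4.5. Of 14 red cell enzymes and related proteins, 11 were in the table, Ahsp, Car1 and Trim58 being not analysed here, and 10 were tested. Of these, 8 were lower, with a median log2 fold change of -0.40, which became -0.19 when PBS tumor 1 was left out and -0.23 when GB2 tumor 1 was. None passed the unadjusted limit, and in 3 (Bpgm, Prdx2 and Cyb5r3) the GB2 tumors were the 3 lowest, beside 6.68% of all genes. The smallest p values were those of Cyb5r3, a reductase that keeps hemoglobin iron reduced (log2 fold change -0.47, adjusted p 0.70 in edgeR), and Bpgm, which makes the 2,3-bisphosphoglycerate that lowers oxygen affinity (-0.39, adjusted p 0.76). Car2, a carbonic anhydrase, was at 6.04, 3.12 and 0.679 CPM in the PBS tumors, against 2.49, 1.07 and 1.01 CPM in the GB2 tumors. Prdx2, an abundant red cell peroxidase, was at 489.6 CPM in PBS tumor 1 and between 202 and 267 CPM in the other tumors.

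Heme synthesis beyond ALAS2 was measured in 15 genes, all tested. Of these, 10 were lower and 5 higher, within -0.98 to 0.24 on the log2 fold change scale, and none passed the unadjusted limit with a 2-fold change. The median was -0.12, which ran from -0.18 without PBS tumor 3 to -0.064 without GB2 tumor 2. Alas1, the housekeeping partner of Alas2 that other cells use, was at 39.6, 54.0 and 64.3 CPM in the PBS tumors, against 57.0, 70.9 and 58.3 CPM in the GB2 tumors. PBS tumor 1, the highest in Alas2, was the lowest in Alas1, and the log2 fold change of Alas1 was 0.24 with an adjusted p of 0.81 (edgeR). Urod, a later enzyme of the pathway, had the smallest p (log2 fold change -0.59, unadjusted p 0.0495, adjusted p 0.72 in edgeR). It was the 1 gene of these 15 with the 3 GB2 tumors lowest, beside 6.68% of all genes. Glrx5, needed for iron-sulfur clusters, followed (-0.98, adjusted p 0.76), at 118 CPM in PBS tumor 1 and 27.1 to 39.5 CPM elsewhere. Fech, which inserts iron into the ring, had a log2 fold change of 0.14.

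Transcription factors of the erythroid lineage were measured next. Of 14 listed, 12 were tested, 8 of them higher and 4 lower, with a median log2 fold change of 0.20 that was -0.0058 when GB2 tumor 1 was left out and 0.095 with PBS tumor 1 left out. Gata1, the defining factor of erythroid cells, had 4 counts, about 1 read pair, in PBS tumor 1 and 0 in the other 5 tumors, where 0 allows at most 0.141 to 0.170 CPM. Klf1, the factor that activates adult beta globin, was at 0.440, 0.383 and 0.736 CPM in the PBS tumors, against 0.810, 0.553 and 0.553 CPM in the GB2 tumors, and the groups overlapped, with the most globin-rich tumor second lowest. Gata2 was the 1 tested gene of this list with the 3 GB2 tumors lowest, beside 6.68% of all genes. Its log2 fold change was -0.67, with an unadjusted p of 0.035 and an adjusted p of 0.68 in edgeR. Lmo2 is a partner of GATA and TAL factors that endothelial cells also use. It alone passed the unadjusted limit, beside 3.74% of all genes on the higher side (log2 fold change 1.09, adjusted p 0.66 in edgeR). In the list of erythropoietin and transferrin signalling, 9 of 11 genes were higher and none passed that limit. Kit, the stem cell factor receptor, came closest (log2 fold change 0.98, unadjusted p 0.0090, adjusted p 0.42 in edgeR and 0.041 in DESeq2, the 3 GB2 tumors being the highest, as in 8.61% of all genes), followed by Steap3 (0.66, adjusted p 0.76). Epor, the erythropoietin receptor, was at -0.21 ± 0.40 (SE) on that scale.

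**Figure D4:**
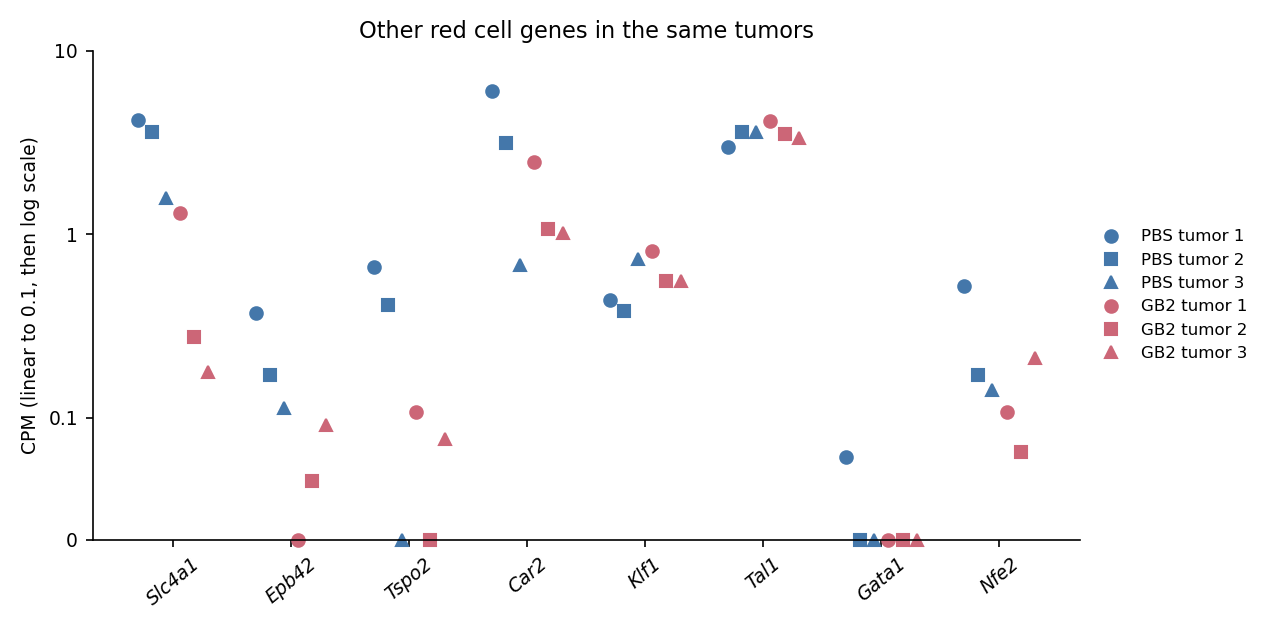
CPM of 8 other red cell genes in each tumor, on an axis that is linear up to 0.1 and a log scale above. The 8 genes were picked from the red cell lists by no fixed rule and do not stand for those lists. In the membrane list, 9 of 13 tested genes were higher in GB2 tumors. Points are tumors, blue for PBS and red for GB2, with the shape giving the tumor number. Slc4a1 has PBS tumors 1 and 2 at the top and GB2 tumors 2 and 3 at the bottom, while Klf1 and Tal1 lie close together and Gata1 is at 0 in 5 tumors.

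Of 15 listed globins outside the adult pairs, 7 were in the table and 4 tested, of which 3 were higher and 1 lower. At the unadjusted limit 2 passed, both higher, beside 3.74% of all genes. Cygb, the cytoglobin of fibroblast-like cells, was at 1.69, 2.47 and 3.31 CPM in the PBS tumors, against 4.88, 3.87 and 6.41 CPM in the GB2 tumors (log2 fold change 1.02, adjusted p 0.59 in edgeR). Mb, the oxygen store of muscle, was at 1.76, 1.86 and 2.04 CPM against 3.48, 3.70 and 4.33 CPM (log2 fold change 1.02, unadjusted p 0.0060, adjusted p 0.35 in edgeR and 0.0077 in DESeq2). In both genes the 3 GB2 tumors were the highest, as in 8.61% of all genes. Neuroglobin (Ngb) was lower, with a log2 fold change of -0.52, and Adgb was at 0.18, and the groups overlapped in both. The alpha-like genes Hbq1a and Hbq1b had too few counts for the test. Hbq1a had 12, 0 and 4 counts in the PBS tumors and none in GB2 tumors, and Hbq1b had 28 counts in PBS tumor 2, 4 in GB2 tumor 1 and 0 in the other 4 tumors. The embryonic alpha-like gene Hba-x was at 0 in all 6 tumors.

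Of 16 genes that take up, export or break down heme and iron, 11 were lower and 5 higher in GB2 tumors, with a median log2 fold change of -0.076, which ran from -0.20 without GB2 tumor 2 to -0.016 without PBS tumor 3. Hmox1, which encodes the inducible heme oxygenase, was at 143, 132 and 132 CPM in the PBS tumors, against 109, 97.1 and 98.4 CPM in the GB2 tumors. Its groups did not overlap, which on the lower side held for 2 of the 16 genes (Hmox1 and Hpx) and 6.68% of all genes, and its log2 fold change was -0.42 ± 0.15 (SE), with 0.0239 as the unadjusted p and 0.61 as the adjusted p in edgeR. Cd163, the macrophage receptor for hemoglobin bound to haptoglobin, was the 1 gene past the unadjusted limit, beside 3.74% of all genes on the higher side (1.8% in DESeq2), at 0.795, 0.894 and 0.665 CPM against 2.52, 2.00 and 3.46 CPM (log2 fold change 1.76, adjusted p 0.23 in edgeR and 7.0e-04 in DESeq2). Ferritin transcripts were highest in PBS tumor 1, at 3896 CPM for Ftl1 against 1409 to 2104 CPM in the other tumors.

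Marker lists of other cells that blood or vessels bring into a tumor were measured beside the globins. The 13 endothelial genes summed to 233 to 343 CPM in PBS tumors and 414 to 449 CPM in GB2 tumors, 12 of them higher. At the unadjusted limit 5 passed as higher (Pecam1, Cdh5, Kdr, Tek and Cldn5), beside 3.74% of all genes, and in 11 every GB2 value exceeded the PBS values, beside 8.61% of all genes. Their median log2 fold change was 0.82, opposite in sign to that of the hemoglobin genes, and Kdr, a VEGF receptor, was at 7.47 to 9.31 CPM in PBS tumors and 21.4 to 24.97 CPM in GB2 tumors. Of 11 neutrophil genes, 9 were tested, with a median of 1.71, and 5 passed the unadjusted limit as higher (S100a8, S100a9, Csf3r, Cxcr2 and Mmp9), beside the same 3.74%. The 2 lower genes were Ltf (log2 fold change -0.43) and Lcn2 (-1.58), which was at 12.8 CPM in PBS tumor 3 and 0.979 to 2.38 CPM in the other tumors. The list summed to 6.80 to 17.4 CPM in PBS tumors and 23.2 to 27.0 CPM in GB2 tumors, with Camp at 0 in 5 of the tumors. Of 8 tested genes listed for macrophages that clear red cells, 7 were higher, with a median of 1.47. At the unadjusted limit 4 passed as higher (Siglec1, Vcam1, Stab1 and Adgre1), beside 3.74% of all genes. Spic, too low for the test, was at 0 in 2 tumors and had at most 5 read pairs in a tumor, and Timd4 at most 5.25. The list is not limited to genes that only such macrophages use, so its median was not assigned to them. Platelet genes summed to 3.54 to 7.24 CPM in PBS tumors and 4.81 to 8.79 CPM in GB2 tumors, and none of the 7 tested passed the limit. The closest were Nrgn (log2 fold change 1.901) and Pf4 (1.02), with adjusted p values of 0.76. B cell genes were near the detection limit, at 0.761 to 1.51 CPM summed over 7 genes, and among the 4 tested Cr2 (0.27) and Cd79b (0.54) had the smallest p. Epcam (1.64, adjusted p 0.51) was the 1 epithelial gene of 7 tested past the unadjusted limit, again beside 3.74%. The part of these cell types in the hemoglobin values was not tested.

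**Figure D5:**
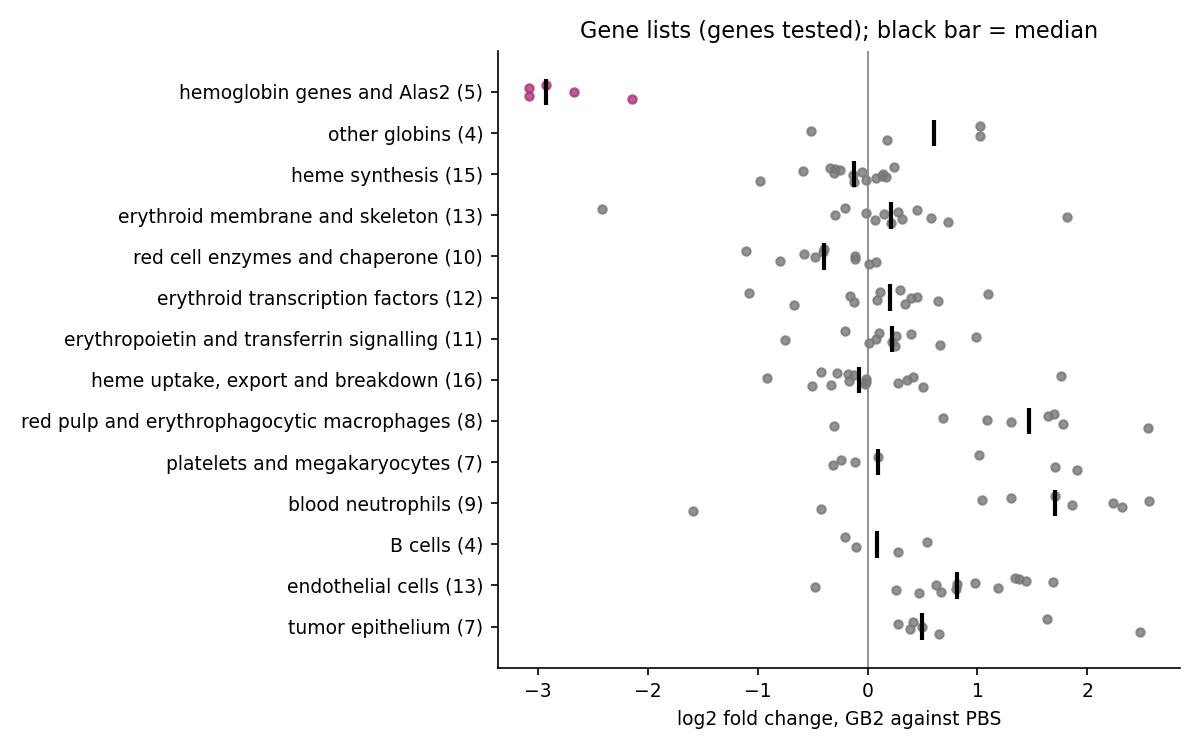
Log2 fold change (GB2 against PBS, edgeR) of each tested gene, by list, with the number of genes tested in brackets and the median as a black bar. The hemoglobin genes and Alas2, chosen for this contrast, lie between -3.08 and -2.14, while the medians of the other lists lie between -0.40 and 1.71.

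Of the tested genes in these lists, Slc4a1 had the log2 fold change nearest to those of the hemoglobin genes. Across all genes with a mean of at least 1 CPM, likeness was measured as Pearson's r between log2 CPM and the mean log2 CPM of the 5 genes over the 6 tumors. Of 14241 candidates, the highest values were those of ENSMUSG00000120175 (0.990), Clk1 (0.988), Gm16046 (0.987), Zcwpw1 (0.985), Fam193b (0.984), Mapk11 (0.984), 1700029I15Rik (0.979) and Kif7 (0.977). The lowest were Hr (-0.995), Tubgcp2 (-0.982), Slc20a1 (-0.978) and Gadd45b (-0.977). A like pattern did not mean a like range. Clk1, a splicing kinase, ran from 101 to 158 CPM over the 6 tumors, and Kif7 from 23.0 to 26.8 CPM, beside 79.3-fold for the summed globins. The 6 tumors share their group and library with the globin values, and with so many candidates such values of r are a description. Slc4a1 reached 0.96 on the same measure.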

How the data were processed

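The data are bulk RNA-seq of 6 MC38 tumors, 3 per group. Per the labels, libraries were poly-A selected, stranded and paired-end. The submitters' processing notes name cutadapt 1.9, HISAT2 2.2.1, StringTie 2.1.6, DESeq2, edgeR and the build mm10, with no roles. The authors deposited estimated counts, whole numbers not scaled between tumors with about 4 counts to a read pair, and FPKM values, divided by transcript length and library total. Of 31999 gene IDs shared with GENCODE M21 (GRCm38), 641 (2.00%) have the same start and end in the table, so gene positions printed are the table's own. The build of these positions was not established, although the notes name mm10. Positions of printed sequences are GRCm38, from GENCODE and from RefSeq windows that matched 5 of 5 genes.

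Counts were tested in R 4.3.3 with edgeR 4.0.16 (filterByExpr with a minimum count of 10, TMM factors of 0.914 to 1.04, glmQLFTest, Benjamini-Hochberg adjustment), with DESeq2 1.42.0 and limma 3.58.1 on log2(FPKM + 1) as alternatives, among others. CPM are counts scaled to the TMM-adjusted library size, with a prior count of 2 on the log2 scale. The scripts were tested on simulated counts. The biological coefficient of variation was 40.5%, which limits what 3 tumors per group can show. The methods describe a single flank, the right, as the site of inoculation, while the labels number the tumors only. Each p-value sets the difference between groups against the variation among these tumors, whose mice are not named.

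The 5 genes and the gene lists were chosen with earlier results of these data known, and 2 genes of the membrane list are not reported here. In each list, genes past the unadjusted limit (p 0.05 and 2-fold) are named, or else the 2 with the smallest p. The genes most and least like the 5 genes in pattern were the 8 highest and 4 lowest by r. Aqp1, Tmod1, Epb41, Car2, Prdx2, Alas1, Fech, Klf1, Gata2, Epor, Hmox1, Hpx, Ftl1, Ngb, Adgb, Lcn2, Ltf and the genes under the filter were named after their values were seen. So were Ank1, Sptb, Dmtn, Icam4, Xk, Add2, Tmcc2, Gypc, Rhd, Timd4, Tal1 and Nfe2.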

Additional observations from a re-analysis of the deposited data

How the results depend on the processing

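The fitted difference of Hba-a1, Hba-a2, Hbb-bs, Hbb-bt and Alas2 kept its sign in the 8 other settings and the 6 fits without a tumor. Leaving out single tumors, the values (log2) ran from -4.94 to -2.01 for Hba-a1, from -5.20 to -2.10 for Hba-a2, from -5.03 to -1.33 for Hbb-bs, from -5.32 to -1.71 for Hbb-bt and from -4.53 to -1.53 for Alas2. The log2 ratio of group means ran from -5.04 to -2.05 for the alpha sum and from -5.11 to -1.42 for the beta sum. The low ends came without GB2 tumor 1 and the high ends without PBS tumor 1. DESeq2 called 385 genes, while edgeR called 0 with all tumors and in each fit with a tumor left out. At the unadjusted limit, the number of lower genes ran from 123 to 548 with a tumor left out and was 338 with no filter on low counts, and limma on log2(FPKM + 1) passed 95 higher and 36 lower genes. The cause was not tested.

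Among the list medians, that of the other globins was -0.16 with no filter, which adds genes near the detection limit, and 0.43 with limma on log2(FPKM + 1). That of heme synthesis was -0.050 with total counts, -0.026 and -0.028 with limma at pseudocounts of 1 and 0.1, and -0.18 to -0.064 with a tumor left out. That of the endothelial list was 0.90 with total counts, 0.60 and 0.91 with limma at those pseudocounts, and 0.75 to 1.004 with a tumor left out. With limma on log2(FPKM + 1), the red cell clearing macrophages were at 0.72 and the neutrophils at 0.55. The platelet median, 0.096 with all tumors, was 1.03 with no filter and higher in each fit with a tumor left out, at 0.50 to 1.25, the epithelial median 0.32 to 1.38, and the transcription factor median -0.0058 to 0.26, its sign turning without GB2 tumor 1, as did that of the membrane list (-0.026, and 0.37 without PBS tumor 1). The B cell median, 0.087 in the main comparison, was -0.24 without GB2 tumor 2, -0.14 without PBS tumor 1 and 0.71 without PBS tumor 3, and it was below 0 with no filter (-0.088) and with limma (-0.041 and -0.21). Those of the red cell enzymes and of heme uptake and breakdown kept their sign, and with limma on log2(FPKM + 1) they were -0.19 and -0.0064.

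Tumor numbers were not taken as pairs, since over all genes tested the deviations of same-numbered tumors correlated at 0.031, 0.15 and -0.24. The 5 genes themselves did follow the number. In both groups tumor 1 was highest and tumor 3 lowest, and each PBS tumor lay above the GB2 tumor of the same number. With the number as a replicate block, edgeR called 0 genes, and 636 higher and 128 lower genes passed the unadjusted limit. The 5 genes lay between -3.37 and -2.89, with SE of 0.464 to 0.575, against 1.147 to 1.298 without the block. The neutrophil and endothelial medians were 2.19 and 0.89. Whether the numbers mark pairs cannot be told from the labels.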
